A study of Mus musculus with 14 samples.

Results

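The genes of the sarcoplasmic reticulum calcium cycle (Ryr2, Casq2, Trdn, Asph, Hrc, Atp2a2, Pln, Sln, Slc8a1 and Jph2) were followed in heart and hippocampus of adult and pup C57/BL6 mice. Every probe set of the Affymetrix mouse genome array that the platform annotation assigns to a single one of these genes was taken, which gave 33 of the 45101 probe sets on the array, for 10 of the 18193 genes that a probe set names alone. Trdn, Asph and Atp2a2 had 6 probe sets each, Slc8a1 had 4, Pln had 3, Ryr2, Sln and Jph2 had 2, and Casq2 and Hrc had 1. Adult heart and adult hippocampus were each represented by 2 biological replicates with 2 technical arrays, which were averaged, and the purchased RNA came from male mice 10 weeks old. This follows the sample titles, whereas the source names number the 4 adult arrays of a tissue as separate biological replicates. With each adult array as a replicate, 10 instead of 7 probe sets of these genes were called between adult and pup heart, 8 instead of 6 between adult and pup hippocampus, 25 instead of 17 between the adult tissues, and 9 instead of 3 in the test of the tissue difference in age change. Pup heart and pup hippocampus were each represented by 3 biological replicates with 1 array, from RNA isolated in the laboratory from mice 7 days old whose sex was not given. Age and source of the RNA therefore cannot be told apart in any adult and pup comparison. No animal was treated or carried an engineered allele. Nothing in the labels says whether the 2 adult replicates of a tissue were taken from different animals, and the p-values may therefore rest on technical spread.

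In heart muscle, calcium that enters during the action potential opens ryanodine receptors in the junctional sarcoplasmic reticulum, and the released calcium activates the myofilaments. Relaxation follows when the ATPase of the sarcoplasmic reticulum pumps calcium back into the store and the sodium-calcium exchanger moves the remainder out of the cell. Calsequestrin, triadin, junctin and the histidine-rich calcium binding protein act at the luminal side of the release channel, phospholamban and sarcolipin restrain the pump, and junctophilin holds the plasma membrane and the store together. Several of these genes, such as Ryr2, Atp2a2 and Slc8a1, are also used by neurons, whose endoplasmic reticulum is their calcium store.

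All values are deposited log2 expression values, which reached at most 16 on these arrays, so probe sets near that value have little room to rise. The lower quartile of the probe set means was 7.69, and since no detection calls were used, no fold is given against a group mean under that level. The 14 arrays had medians between 8.73 and 8.98, and arrays correlated with the others of their own group at a mean r of 0.932 to 0.968. Spiked hybridization controls averaged 12.8 to 13.4 on pup arrays and lower on adult arrays, whose group means were 10.7 for heart and 10.8 for hippocampus. The mean of 10 cardiomyocyte markers was 14.18 and 14.51 in adult heart and 15.22 to 15.32 in pup heart, against 8.79 and 9.04 in adult hippocampus and 9.27 to 11.44 in pup hippocampus. The highest pup hippocampus value was that of replicate 1, in which Actc1, the cardiac actin, was at 14.76, against 12.49 and 10.31 in replicates 2 and 3, and Myh6, the alpha heavy chain of cardiac myosin, was at 11.68, against 9.76 and 8.85. Of 8 neuronal markers, Snap25 and Stmn2 were lower in heart at both ages, Slc17a7 in adults and Syn1 in pups, so 3 were lower at each age, and the other 5 did not pass the test. By their brightest probe sets, Nrgn, Rbfox3 and Gad1 averaged 15.46, 13.90 and 13.41 in adult heart, against 15.39, 13.59 and 14.06 in adult hippocampus. These 3 therefore give no measure of neuron content here. A list of 7 skeletal muscle markers averaged between 7.43 and 8.08 in every sample, and of these Tnni2 was higher in adult heart than in pup heart and adult hippocampus. Smooth muscle markers were higher in heart for 3 of 6 genes at each age, and 2 of 5 blood markers were measured, of which Hba-a1 was higher in adult than in pup heart. In whole tissue, fewer cells of a type and less RNA per cell cannot be told apart.

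Heart was compared with hippocampus at each age to find which of these genes distinguish the beating tissue. In adults, 14 of the 33 probe sets were higher in heart and 3 were lower at an adjusted p under 0.05 (limma), and 16 did not pass. This was 51.5% of the probe sets of these genes, against 22.2% of all 45037 probe sets tested, 11.9% of which were higher and 10.3% lower. Their median difference was 1.27, against 0.06 for all probe sets. In pups, 21 were higher in heart and 2 were lower, which was 69.7% against 14.3% of all probe sets (6.77% higher and 7.52% lower), and the median difference was 1.67 against 0.10. Pln, Hrc, Casq2, Trdn, Atp2a2, Sln and Asph each had at least 1 probe set that was higher in heart at both ages, Ryr2 and Jph2 had one in pups, and no Slc8a1 probe set was higher in heart at either age. The number called in pups was 16 without pup hippocampus replicate 1, the sample with the high cardiomyocyte markers, and the part of those markers in the other calls was not tested.

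**Figure D1:**
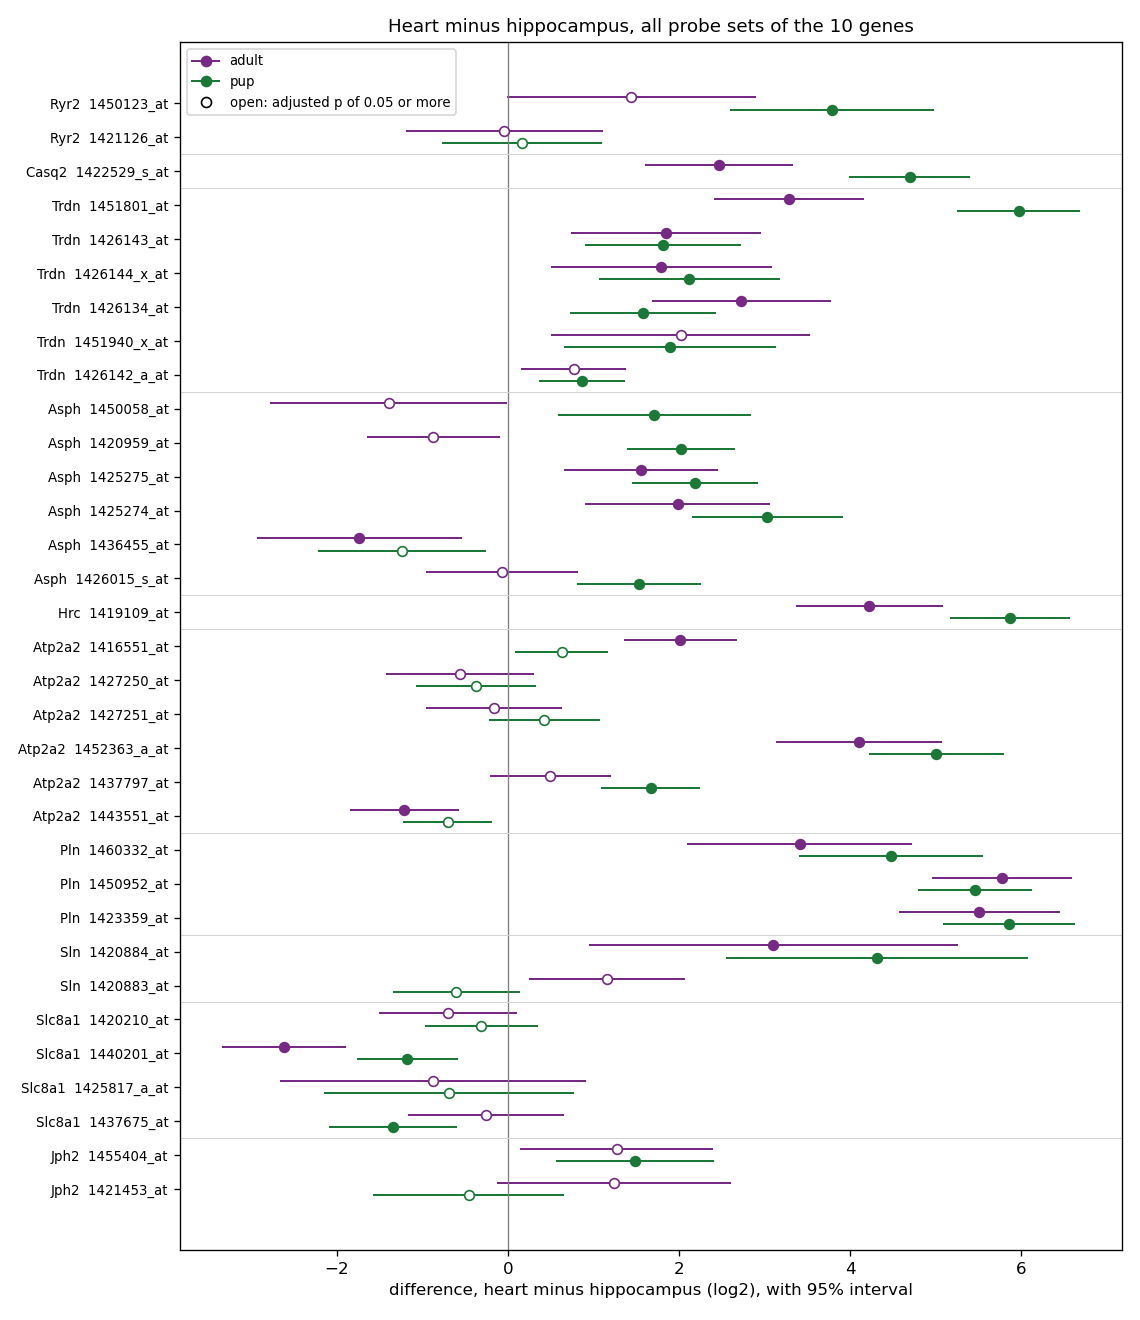
Difference between heart and hippocampus on the log2 scale for all 33 probe sets, in adults (purple) and in pups (green), with 95% intervals from limma; open points did not pass an adjusted p of 0.05. The Pln, Hrc and Casq2 points all lie to the right of 0, between 2.47 and 5.87, whereas the 4 Slc8a1 probe sets lie to the left of 0 at both ages.

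The promoters of Pln, Hrc and Casq2 are shown because every probe set of these 3 genes was higher in heart at both ages. Each runs from 250 bases before to 50 after the annotated start, 5′ to 3′ on the gene's strand (RefSeq, build GRCm38.p6), and lies at chr10:53337436-53337735 (plus strand) for Pln, chr7:45335019-45335318 (plus strand) for Hrc and chr3:102086165-102086464 (plus strand) for Casq2. Capitals mark the E box CAGCTG and a motif of GATA factors, GATAAG. Both were searched on either strand, and the Casq2 promoter holds neither.
Pln: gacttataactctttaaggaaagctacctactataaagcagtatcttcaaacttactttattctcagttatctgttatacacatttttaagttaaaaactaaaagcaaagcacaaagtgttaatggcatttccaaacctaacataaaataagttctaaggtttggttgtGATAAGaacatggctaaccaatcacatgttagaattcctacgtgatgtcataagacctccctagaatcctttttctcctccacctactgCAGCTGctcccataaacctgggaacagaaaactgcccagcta
Hrc: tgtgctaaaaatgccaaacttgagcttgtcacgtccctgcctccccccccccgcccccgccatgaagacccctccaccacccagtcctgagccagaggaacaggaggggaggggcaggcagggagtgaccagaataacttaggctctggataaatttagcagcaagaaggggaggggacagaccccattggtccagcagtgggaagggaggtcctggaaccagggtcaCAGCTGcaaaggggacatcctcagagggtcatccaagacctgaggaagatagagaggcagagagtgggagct
Casq2: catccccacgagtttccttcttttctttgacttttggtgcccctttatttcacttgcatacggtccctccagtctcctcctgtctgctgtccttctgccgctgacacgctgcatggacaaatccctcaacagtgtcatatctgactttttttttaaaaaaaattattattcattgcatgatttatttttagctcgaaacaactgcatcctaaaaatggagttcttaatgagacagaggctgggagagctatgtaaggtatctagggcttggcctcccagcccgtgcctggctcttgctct
Of 32851 mouse promoters of this length, 16.3% hold the E box and 7.44% the GATA motif. Among the 6 of these 10 genes with a promoter sequence (7 promoters, since Jph2 has 2), the E box stood in Hrc, 22 bases before the start, in both Jph2 promoters, and in Pln, 9 bases after the start. The Jph2 promoters overlap, and their E box is the same site, 9 and 29 bases before the respective starts. GATAAG stood in Pln, 81 bases before the start, and in Slc8a1, 67 bases before it. TATAAA was present in Pln alone, against 13.6% of all promoters, and the MEF2 letters CTA and TAG with any 4 bases between them, held by 3.69%, were in none of the 7. GGGCGG, held by 35.7% of all promoters, was in those of Hrc, Jph2 and Ryr2. A match says only that these letters are present. Trdn, Sln, Atp2a2 and Asph were without a sequence in the table used.

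Among the luminal partners of the release channel, Hrc, which binds calcium inside the store, was higher in heart at both ages. Its probe set 1419109_at was at 14.18 and 13.63 in adult heart and at 15.12, 14.78 and 14.81 in pup heart, against 9.68 and 9.69 in adult hippocampus and 9.72, 8.65 and 8.74 in pup hippocampus. All 5 hearts lay above all 5 hippocampi. The difference was 4.22 ± 0.38 (SE) in adults, or 18.7-fold (adjusted p = 0.000177), and 5.87 ± 0.31 in pups, or 58.3-fold (adjusted p = 2.78e-06). Casq2, the cardiac calsequestrin and main calcium buffer of the store, was at 13.00 and 12.66 in adult heart and at 15.26, 14.52 and 14.96 in pup heart by probe set 1422529_s_at. In hippocampus it was at 10.43 and 10.29 in adults and at 10.38, 9.61 and 10.66 in pups, below every heart. Casq2 was 5.54-fold higher in adult heart than in adult hippocampus (difference 2.47, adjusted p = 0.00209) and 25.9-fold higher in pup heart than in pup hippocampus (difference 4.70, adjusted p = 9.35e-06). The suffix _s_at marks probes that may also match transcripts of another gene.

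Trdn encodes triadin, the anchor between calsequestrin and the ryanodine receptor. Its brightest probe set, 1451801_at, was at 10.33 and 10.22 in adult heart and at 12.75, 11.45 and 12.48 in pup heart, against 6.94 and 7.04 in adult hippocampus and 6.33, 6.34 and 6.11 in pup hippocampus. The tissues did not overlap at either age. The difference was 3.29 ± 0.39 in adults (adjusted p = 0.00058) and 5.97 ± 0.32 in pups (adjusted p = 2.82e-06), against hippocampus values in the lowest part of the scale. The other 5 Trdn probe sets were also higher in pup heart, by 0.87 to 2.12, and 3 of them were higher in adult heart. For 1426142_a_at, which had the smallest pup difference, both pup means were under 7.69 (6.82 in heart and 5.95 in hippocampus). In pups the call of 1451940_x_at (adjusted p = 0.0474) was kept in 2 of 10 fits that left out a sample and was lost under both other scalings of the arrays. The adult calls were 1426134_at (2.73, adjusted p = 0.00324), 1426143_at (1.85, adjusted p = 0.025) and 1426144_x_at (1.79, adjusted p = 0.0493), and the call of the last was kept in 2 of 10 such fits and lost under the same scalings. In adults, 1451940_x_at had a difference of 2.02 (95% interval 0.51 to 3.52) and 1426142_a_at one of 0.77 (0.17 to 1.37), with adjusted p of 0.0585 and 0.0681.

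Ryr2, the cardiac ryanodine receptor through which the store releases calcium, was read by 2 probe sets. By 1450123_at it was at 11.81 and 11.37 in adult heart and at 13.74, 12.59 and 14.91 in pup heart, against 10.07 and 10.22 in adult hippocampus and 9.90, 10.63 and 9.35 in pup hippocampus. Every heart lay above every hippocampus, and the pup hearts were spread widely. In pups the tissue difference was 3.79 ± 0.53 (13.8-fold, adjusted p = 0.00104). For adults it was 1.44 with a 95% interval of -0.01 to 2.89 and did not pass (adjusted p = 0.144). The second probe set, 1421126_at, stayed between 7.47 and 9.13 in the 10 samples, with a difference of -0.04 (-1.18 to 1.10) in adults and of 0.16 (-0.76 to 1.09) in pups.

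**Figure D2:**
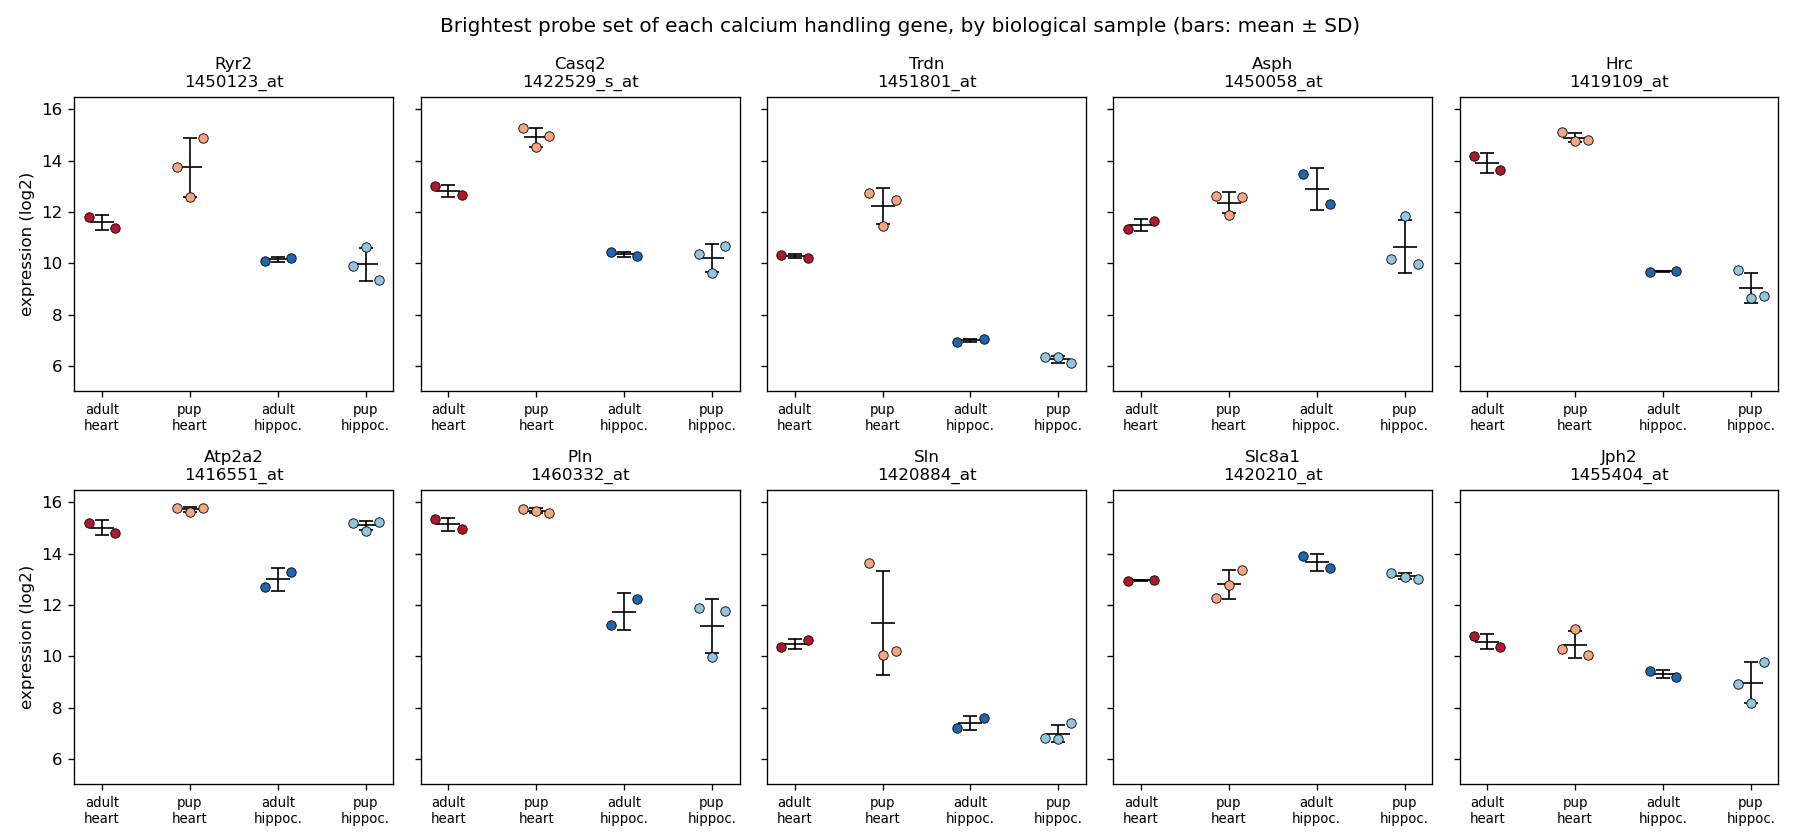
Expression (log2) of the probe set with the highest mean for each gene, 1 point per biological sample with mean ± SD (n = 2 adult, n = 3 pup), in adult heart, pup heart, adult hippocampus and pup hippocampus. Hearts lie above hippocampi for Ryr2, Casq2, Trdn, Hrc, Atp2a2, Pln, Sln and Jph2 at both ages. The differences of Ryr2 and Jph2 in adults and of Atp2a2 in pups did not pass. For Slc8a1 the pup groups overlap, and Asph has its highest mean in adult hippocampus. Levels of different probe sets are not comparable with each other.

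Asph gives rise by alternative promoters and splicing to aspartyl beta-hydroxylase, found in many tissues, and to junctin and junctate, which belong to the calcium store. Which of these products each probe set reads was not given in the sources used here. In pup heart 5 of the 6 probe sets were higher than in pup hippocampus, led by 1425274_at with a difference of 3.03 ± 0.39 (adjusted p = 0.000637). By this probe set Asph was at 9.14 and 9.15 in adult heart and at 11.04, 9.75 and 11.17 in pup heart, against 7.39 and 6.94 in adult hippocampus and 7.83, 7.09 and 7.95 in pup hippocampus. The adult difference was 1.98 (adjusted p = 0.0165), and 1425275_at differed by 1.55 in adults (adjusted p = 0.0207) and by 2.19 in pups (adjusted p = 0.00148). Both of these were higher in heart at either age. The other 4 probe sets did not share this direction in adults. Of these, 1436455_at was lower in adult heart, at 7.45 and 7.60, against 9.41 and 9.11 in adult hippocampus (difference -1.74, adjusted p = 0.0424). Its call was lost when any of 7 samples was left out. The brightest, 1450058_at, was at 11.34 and 11.66 in adult heart, against 13.48 and 12.31 in adult hippocampus, and its difference of -1.39 did not pass (95% interval -2.77 to -0.02, adjusted p = 0.137). Nor did the -0.87 of 1420959_at (-1.64 to -0.11, adjusted p = 0.0978) or the -0.07 of 1426015_s_at (-0.94 to 0.81, adjusted p = 0.926). In pups the call of 1450058_at (difference 1.71, adjusted p = 0.0486) was kept in 1 of 10 fits that left out a sample and was also lost under both other scalings.

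Phospholamban, encoded by Pln, slows the calcium pump until it is phosphorylated. All 3 Pln probe sets were higher in heart at both ages. Probe set 1450952_at was at 15.03 and 14.28 in adult heart and at 15.33, 15.29 and 15.41 in pup heart, against 8.95 and 8.82 in adult hippocampus and 10.07, 10.26 and 9.32 in pup hippocampus. Its difference was 5.77 ± 0.36 in adults (54.7-fold, adjusted p = 6.75e-05) and 5.46 ± 0.29 in pups (44.0-fold, adjusted p = 3.07e-06). With 1423359_at the difference was 5.51 in adults (adjusted p = 0.000113) and 5.85 in pups (adjusted p = 4.69e-06). The probe set 1460332_at was at 15.34 and 14.97 in adult heart and at 15.76, 15.68 and 15.58 in pup heart, close to the top of the scale. It was at 11.24 and 12.25 in adult hippocampus and at 11.86, 9.98 and 11.75 in pup hippocampus. Although technical arrays of one adult replicate differed by as much as 2.42 for it, its tissue difference passed at both ages (3.41 in adults, adjusted p = 0.00333, and 4.48 in pups, adjusted p = 0.000184). No hippocampus reached the lowest heart for any of the 3.

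Sarcolipin, the product of Sln, restrains the pump in the way phospholamban does and in mouse heart is known from the atria. By 1420884_at it was at 10.36 and 10.62 in adult heart and at 13.63, 10.05 and 10.22 in pup heart, against 7.20 and 7.58 in adult hippocampus and 6.81, 6.77 and 7.38 in pup hippocampus. Hearts lay above hippocampi, and pup heart replicate 1 stood far above the other pup hearts. The tissue difference was 4.31 ± 0.78 in pups (adjusted p = 0.00505) and 3.15 (adjusted p = 0.000176) when that sample was left out. In adults it was 3.10 ± 0.96 (adjusted p = 0.0446), a call lost when any of 7 samples was left out. Atrial markers differed between the pup hearts as well. Myl7, the atrial myosin light chain, was at 12.82, 11.05 and 11.01 in pup hearts 1, 2 and 3, and Nppa, the atrial natriuretic peptide, at 15.30, 13.06 and 14.05. Bmp10 was at 9.90, 8.71 and 9.71 and Myl4 at 14.05, 13.93 and 14.38. Replicate 1 was thus the highest pup heart for Sln, Myl7, Nppa and Bmp10, and not for Myl4. The fifth listed gene, Nr2f1, was at 7.32, 7.51 and 8.73, lowest in replicate 1, and the mean of the list was 11.88, 10.85 and 11.58. In adult heart Myl7, Nppa and Nr2f1 were lower than in pup heart. The part of atrial tissue in the Sln values was not tested. The other Sln probe set, 1420883_at, differed by 1.16 in adults (0.26 to 2.06, adjusted p = 0.0668) and by -0.60 in pups (-1.34 to 0.13, adjusted p = 0.273).

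**Figure D3:**
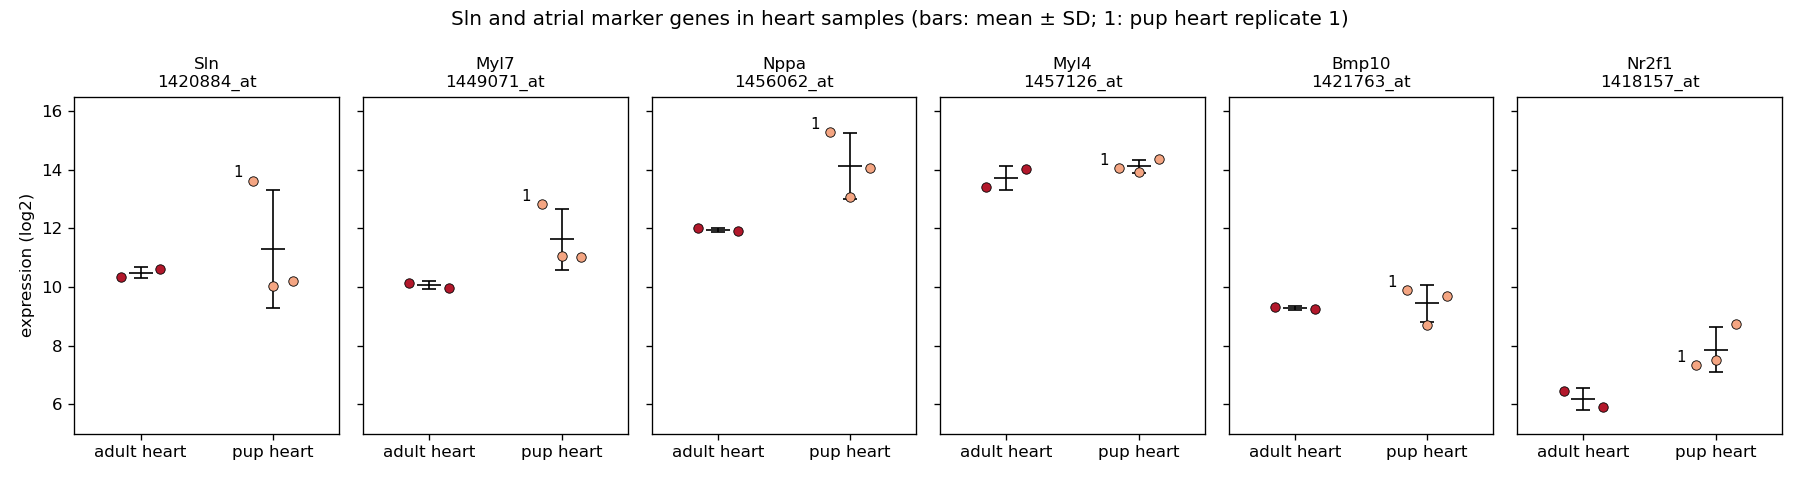
Expression (log2) of Sln and of 5 atrial marker genes in adult heart (n = 2) and pup heart (n = 3), 1 point per biological sample with mean ± SD. The point labelled 1 is pup heart replicate 1, which is the highest pup heart for Sln at 13.63, for Myl7 at 12.82, for Nppa at 15.30 and for Bmp10 at 9.90. For Myl4 replicate 3 is the highest pup heart at 14.38, and for Nr2f1 replicate 1 is the lowest at 7.32.

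Atp2a2 encodes the calcium pump of the cardiac store and, through another 3′ end, a form of the endoplasmic reticulum pump found in most cells. Its 6 probe sets did not show one pattern, and which transcript each reads was not given in the sources used here. Probe set 1452363_a_at was at 15.10 and 14.57 in adult heart and at 15.04, 15.34 and 14.86 in pup heart, against 10.56 and 10.90 in adult hippocampus and 10.77, 10.09 and 9.36 in pup hippocampus. It was 17.1-fold higher in heart in adults (difference 4.10, adjusted p = 0.000358) and 32.2-fold in pups (difference 5.01, adjusted p = 1.33e-05). By contrast 1416551_at was at 15.21 and 14.81 in adult heart and at 15.79, 15.63 and 15.78 in pup heart, against 12.69 and 13.30 in adult hippocampus and 15.20, 14.90 and 15.22 in pup hippocampus. With this probe set all 3 pup hippocampi were within 1 log2 unit of the pup hearts. The adult difference was 2.01 (4.04-fold, adjusted p = 0.00153), and the pup difference of 0.63 (95% interval 0.09 to 1.16) did not pass (adjusted p = 0.117). Of the rest, 1437797_at was higher in heart in pups (1.67, adjusted p = 0.00179), 1443551_at was lower in heart in adults (-1.21, adjusted p = 0.0132), and 1427250_at and 1427251_at passed in neither, with differences between -0.56 and 0.42. The means of 1443551_at were under 7.69 in every group, at 5.78 in adult heart and 6.99 in adult hippocampus.

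**Figure D4:**
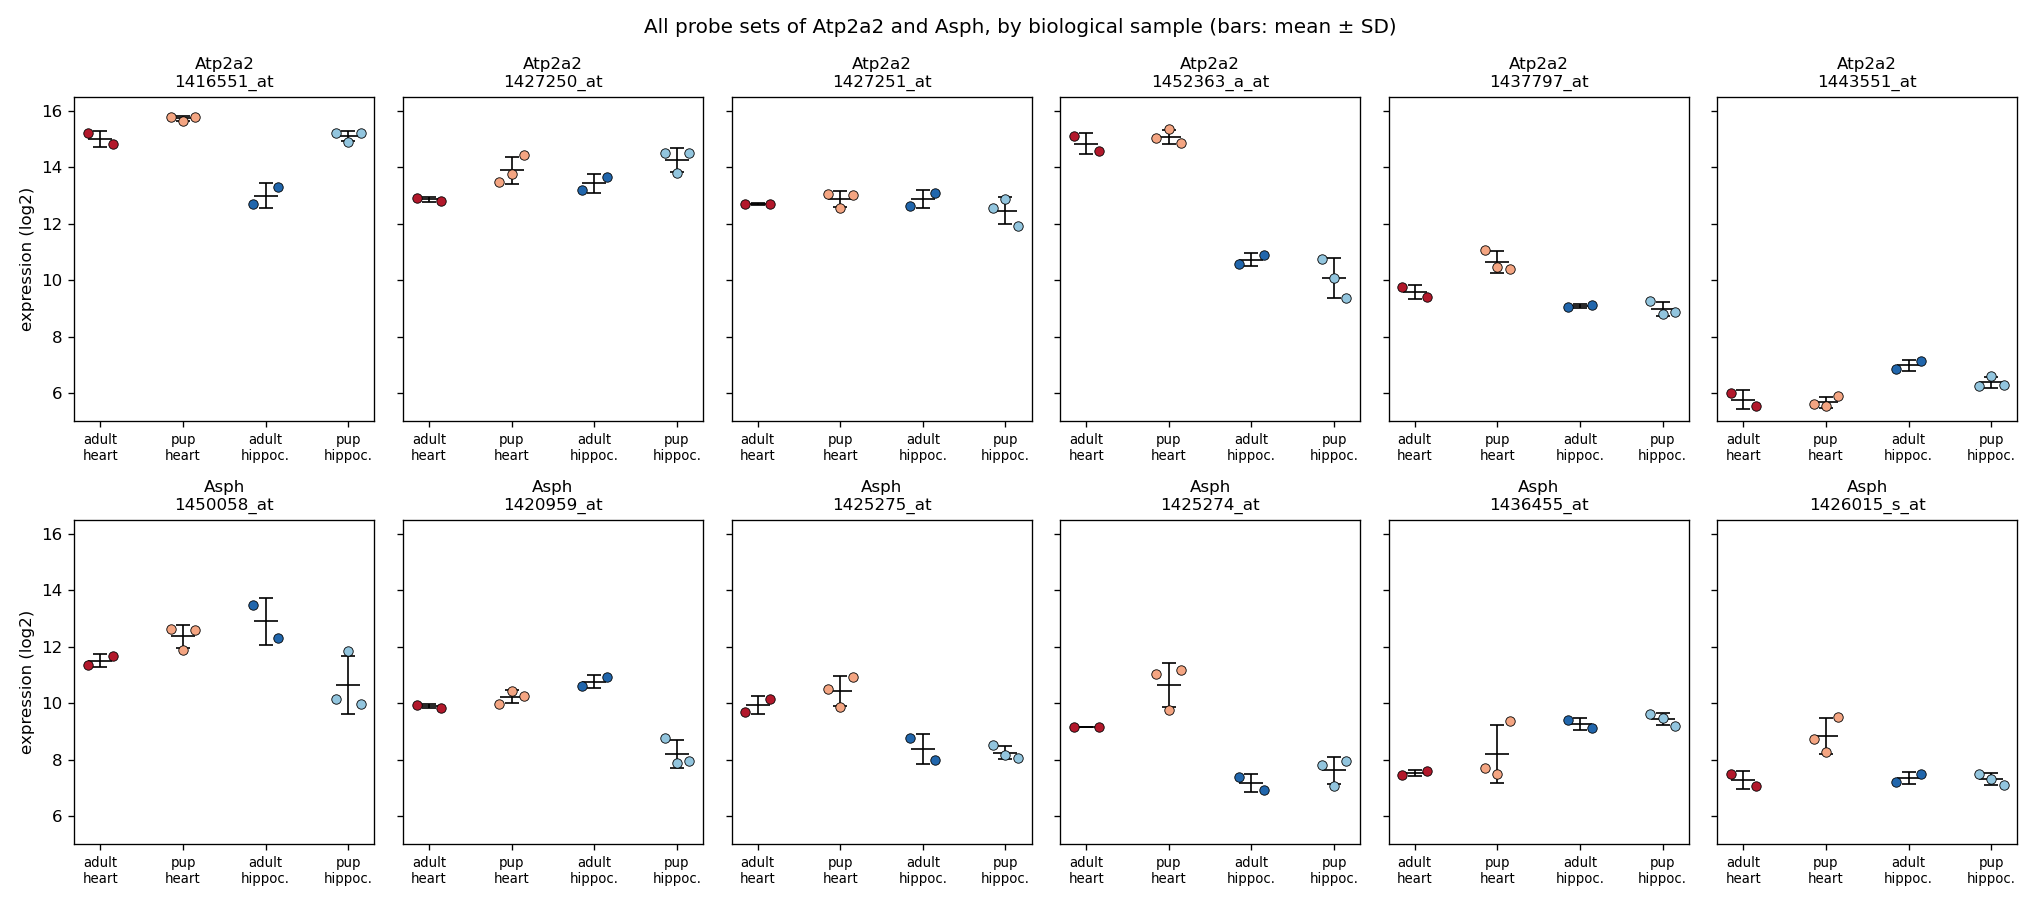
Expression (log2) of the 6 probe sets of Atp2a2 (top) and of Asph (bottom) in adult heart, pup heart, adult hippocampus and pup hippocampus, 1 point per biological sample with mean ± SD (n = 2 adult, n = 3 pup). Atp2a2 1452363_a_at separates the tissues at both ages, whereas 1416551_at is low in adult hippocampus alone (12.69 and 13.30), and Asph 1420959_at is low in pup hippocampus alone (7.87 to 8.78).

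Slc8a1, the sodium-calcium exchanger of the plasma membrane, was the one gene of the 10 with no probe set higher in heart. Its probe set 1440201_at was lower in heart, at 8.31 and 7.71 in adult heart and 9.84, 10.08 and 9.47 in pup heart, against 10.48 and 10.78 in adult hippocampus and 10.82, 10.86 and 11.24 in pup hippocampus. All hearts lay below all hippocampi, with a difference of -2.62 in adults (6.14-fold lower, adjusted p = 0.000686) and of -1.18 in pups (2.26-fold lower, adjusted p = 0.0142). A second one, 1437675_at, was lower in heart in pups (-1.35, adjusted p = 0.0224), where its heart mean of 7.18 was under 7.69. The brightest, 1420210_at, was at 12.95 and 12.97 in adult heart and 12.28 to 13.38 in pup heart, against 13.90 and 13.42 in adult hippocampus and 13.01 to 13.25 in pup hippocampus, and it passed at neither age. Technical arrays of one adult replicate differed by up to 2.59 for this probe set. The remaining one, 1425817_a_at, also passed at neither age. Its difference was -0.88 in adults (-2.65 to 0.90, adjusted p = 0.478) and -0.69 in pups (-2.14 to 0.76, adjusted p = 0.546). The Slc8a1 transcripts read by these probe sets were not determined, so a lower probe set need not stand for the whole gene. Jph2, whose product junctophilin ties the store to the T-tubule, was at 10.77 and 10.38 in adult heart and at 10.28, 11.06 and 10.03 in pup heart by 1455404_at. In hippocampus this probe set was at 9.41 and 9.20 in adults and at 8.92, 8.19 and 9.80 in pups, below every heart. Its difference passed in pups (1.49, adjusted p = 0.0373), a call kept in 2 of 10 fits that left out a sample, and not in adults (1.27, 0.15 to 2.39, adjusted p = 0.0993). The other Jph2 probe set, 1421453_at, passed at neither age.

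Adult heart was compared with pup heart to follow the same genes with age. Of the 33 probe sets, 7 were lower in adult heart and none was higher (limma, with 10 lower and 0 higher at an unadjusted p under 0.05, and 0 called by the methods' t-test), and the 7 belonged to Ryr2, Casq2, Trdn, Asph, Atp2a2 and Slc8a1. This was 21.2%, against 20.0% of all probe sets tested, so the share called was near that of the array. By direction, 8.32% of all probe sets were lower in adult heart and 11.7% were higher (5262 higher and 3749 lower). With the arrays median centred and scaled by their percentile range the split was 4280 higher and 4728 lower, and with quantile normalization it was 4412 and 4491. The median of all probe sets was 0.11 as deposited, -0.03 after the first scaling and 0.003 after the second, and the same 7 probe sets were lower under both. The median over the 33 was -0.65, and 25 of them had a negative difference. The RNA source and the hybridization controls changed with age too, so their part cannot be told apart from that of age.

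Casq2 1422529_s_at was lower, at a mean of 12.83 ± 0.24 in adult heart, against 14.91 ± 0.37 in pup heart (SD, n = 2 and 3), a difference of -2.08 ± 0.35 (SE, 4.24-fold lower, adjusted p = 0.00363). Trdn 1451801_at averaged 10.28 ± 0.08 in adult heart and 12.23 ± 0.69 in pup heart (difference -1.95, adjusted p = 0.00516). Slc8a1 1440201_at averaged 8.01 ± 0.43 in adult heart and 9.80 ± 0.31 in pup heart (difference -1.78, adjusted p = 0.00333). The adult and pup hearts did not overlap for these 3, but neither did they for uncalled probe sets such as Hrc 1419109_at and Pln 1460332_at. The calls of Casq2 1422529_s_at, Trdn 1451801_at and Slc8a1 1440201_at were kept whichever sample was left out. The other Trdn probe sets did not pass, with differences between -0.80 and 0.33, nor did the other Slc8a1 ones, between -0.72 and 0.16. Ryr2 1421126_at differed by -0.23 and did not pass either (adjusted p = 0.769). Ryr2 1450123_at averaged 11.59 ± 0.31 in adult heart and 13.75 ± 1.16 in pup heart, 4.46-fold lower (difference -2.16, adjusted p = 0.0301). Its adjusted p was 0.0627 without pup heart replicate 1, 0.0536 without pup heart replicate 3, and 0.107 and 0.164 without adult heart replicates 1 and 2. The remaining calls were Asph 1426015_s_at (-1.56, adjusted p = 0.0145), Asph 1425274_at (-1.51, adjusted p = 0.0376) and Atp2a2 1437797_at (-1.07, adjusted p = 0.027), each lost without either adult heart. The call of Asph 1425274_at was kept in 3 of 10 fits that left out a sample, being lost also without pup heart replicate 1 or 3, pup hippocampus replicate 1 or either adult hippocampus. That of Atp2a2 1437797_at was lost also without pup heart replicate 1, and that of Asph 1426015_s_at was kept in the other 8 fits. Without adult heart replicate 1, and also without replicate 2, 3 of the 33 probe sets passed.

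Pln, Sln, Hrc and Jph2 had no probe set that passed between adult and pup heart, and Atp2a2 passed only by 1437797_at. Hrc 1419109_at averaged 13.91 ± 0.39 in adult heart and 14.90 ± 0.19 in pup heart, a difference of -1.0 (95% interval -1.77 to -0.22, adjusted p = 0.0709). For the 3 Pln probe sets the differences lay between -0.69 and -0.36, and the widest interval, that of 1460332_at, was -1.71 to 0.67. Atp2a2 1416551_at differed by -0.72 (-1.32 to -0.13, adjusted p = 0.0849) and 1427250_at by -1.03 (-1.80 to -0.25, adjusted p = 0.0649). Sln 1420884_at differed by -0.81 with an interval of -2.77 to 1.15, and pup heart replicate 1 stood apart. Jph2 differed by 0.12 (-0.90 to 1.14) and 0.78 (-0.46 to 2.02). Cardiomyocyte markers moved in the same direction, with a median difference of -0.94, and 3 of 10 passed as lower in adult heart (Actn2, Tnni3 and Ttn). Their part in the calls of the calcium genes was not tested.

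**Figure D5:**
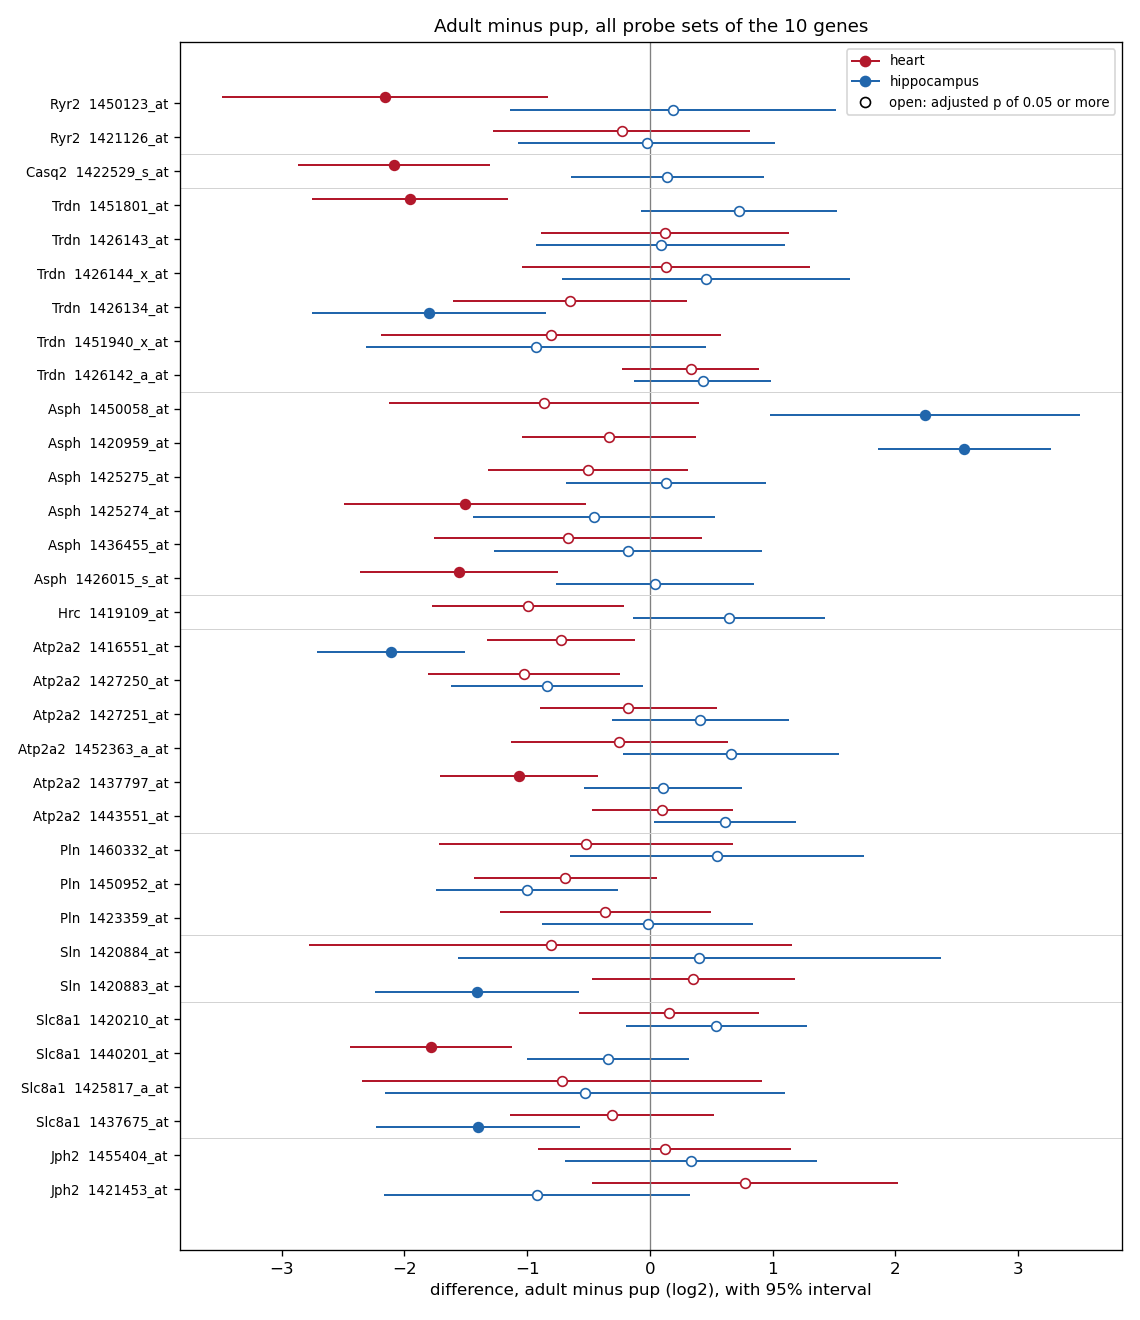
Difference between adult and pup on the log2 scale for all 33 probe sets, in heart (red) and in hippocampus (blue), with 95% intervals from limma; open points did not pass an adjusted p of 0.05. The 7 filled heart points all lie to the left of 0, between -2.16 and -1.07, and the 6 filled hippocampus points lie on both sides, from -2.11 for Atp2a2 1416551_at to 2.56 for Asph 1420959_at.

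Between adult and pup hippocampus, 2 probe sets were higher in adults and 4 were lower, 18.2% of the 33 against 14.9% of all probe sets (8.38% higher and 6.52% lower). Both that were higher belonged to Asph. Asph 1420959_at was at 10.59 and 10.94 in adult hippocampus, against 8.78, 7.87 and 7.97 in pup hippocampus (difference 2.56 ± 0.31, 5.90-fold, adjusted p = 0.00152). Asph 1450058_at was at 13.48 and 12.31, against 10.15, 11.84 and 9.97 (difference 2.24, adjusted p = 0.0271), and lost its call without either adult hippocampus or without pup hippocampus replicate 1 or 3. The pump gene went the other way by its brightest probe set, since Atp2a2 1416551_at was at 12.69 and 13.30 in adult hippocampus, against 15.20, 14.90 and 15.22 in pup hippocampus. This was a difference of -2.11 ± 0.27 (4.32-fold lower, adjusted p = 0.00174). It did not extend to the other Atp2a2 probe sets, of which 1427250_at came nearest at -0.84 (-1.61 to -0.06, adjusted p = 0.135) and 1452363_a_at was at 0.66 (-0.21 to 1.54, adjusted p = 0.283). Trdn 1426134_at (-1.80, adjusted p = 0.0213), Sln 1420883_at (-1.41, adjusted p = 0.0318) and Slc8a1 1437675_at (-1.40, adjusted p = 0.0323) were also lower in adults. Each had an adult mean under 7.69, and for Trdn 1426134_at both means were under it (5.13 in adults and 6.93 in pups). The brightest probe sets of these genes had positive differences that did not pass, 0.73 for Trdn, 0.40 for Sln and 0.54 for Slc8a1. With the exception of Asph 1420959_at and Atp2a2 1416551_at, each of these 6 calls was lost on leaving out at least 1 hippocampus sample, and 2 probe sets passed without adult hippocampus replicate 1 and 3 without adult hippocampus replicate 2. Cardiomyocyte markers were lower in adult hippocampus too, with a median difference of -0.84, and 2 of 10 passed. These were Actc1, at 8.30 and 8.51 in adult hippocampus, against 14.76, 12.49 and 10.31 in pup hippocampus (-4.11, adjusted p = 0.0199), and Myh6 (-3.15, adjusted p = 0.0132). Without pup hippocampus replicate 1, the highest for both, 4 of the 33 probe sets passed, and Atp2a2 1416551_at (-2.07), Trdn 1426134_at (-2.05) and Sln 1420883_at (-1.56) were still lower in adults. Actc1 was above both adult hippocampi in pup replicates 2 and 3 too, and the part of these markers in the calls was not tested.

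Whether the tissues differed in their change with age was tested as the heart difference between adult and pup less the hippocampus one. For this difference 3 of the 33 probe sets passed, all negative, which was 9.09% against 3.55% of all probe sets (2.37% positive and 1.18% negative). Casq2 1422529_s_at had an age difference of -2.08 in heart and 0.14 in hippocampus (difference of differences -2.23 ± 0.49, adjusted p = 0.0408). Trdn 1451801_at had -1.95 in heart and, at levels under 7.69, 0.73 in hippocampus (-2.68 ± 0.50, adjusted p = 0.0222). For these 2 probe sets the heart difference passed and the hippocampus difference did not. The other Trdn probe sets did not pass this test, with values between -0.33 and 1.15. Of these, 1426134_at was lower with age in hippocampus (-1.80, adjusted p = 0.0213) and did not pass in heart (-0.65, adjusted p = 0.311). Asph 1420959_at was the reverse, with -0.33 in heart, which did not pass, and 2.56 in hippocampus (-2.89 ± 0.44, adjusted p = 0.0114). No probe set passed when any one adult sample was left out, and 5 passed without pup heart replicate 2. The Casq2 call was kept in 2 of 10 fits that left out a sample, the Trdn call in 4 and the Asph call in 6. Asph 1450058_at (-3.11, -4.88 to -1.33, adjusted p = 0.0638) and Atp2a2 1416551_at (1.39, 0.55 to 2.23, adjusted p = 0.0741) came close without passing.

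Among 10 relatives of these genes, each taken by its brightest probe set, 4 were higher in adult heart than in pup heart and none was lower (limma, with 6 higher and 1 lower at an unadjusted p under 0.05). Of all probe sets, 11.7% were higher and 8.32% lower. Ryr3, another ryanodine receptor, differed by 1.57 (adjusted p = 0.0276), Jph1 by 1.26 (adjusted p = 0.0496) and Ryr1, the skeletal muscle channel, by 1.04 (adjusted p = 0.0357), whereas Ryr2 1450123_at was lower in adult heart. In adults 3 relatives were lower in heart than in hippocampus, namely Jph4, a neuronal junctophilin (-2.53, adjusted p = 0.000857), and the exchangers Slc8a3 (-2.21, adjusted p = 0.000571) and Slc8a2 (-1.87, adjusted p = 0.0020), and Ryr1 was higher (1.34, adjusted p = 0.0175). Between the adult tissues 10.3% of all probe sets were lower in heart and 11.9% higher.

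Of 16 partners at the sarcoplasmic reticulum and T-tubule, 15 were measured, and 6 were lower and 1 higher in adult heart than in pup heart. Over all probe sets, 8.32% were lower and 11.7% higher in this comparison. The largest of the lower differences were Prkaca, the catalytic subunit of the kinase that phosphorylates phospholamban, at -2.84 (adjusted p = 0.000414), Srl, the luminal protein sarcalumenin, at -2.15 (adjusted p = 0.00229), and Hax1, which binds phospholamban, at -1.91 (adjusted p = 0.00811). Prkaca was read by 1447720_x_at and Hax1 by 1438180_x_at, and the suffix _x_at marks probes that may also match other transcripts. Prkaca and Hax1 were lower in adult than in pup hippocampus as well, at -2.30 (adjusted p = 0.00113) and -1.68 (adjusted p = 0.0198), and 4 of the 15 partners were lower there and none higher (limma, with 4 lower and 0 higher at an unadjusted p under 0.05). For all probe sets the shares there were 6.52% lower and 8.38% higher. Ppp1r1a, an inhibitor of protein phosphatase, was higher in adult heart by 1.15 (adjusted p = 0.0168) and lower in adult hippocampus (-1.47, adjusted p = 0.00896). Between the adult tissues, where 22.2% of all probe sets passed, only Srl of the 15 did, 9.22-fold higher in heart (3.20, adjusted p = 0.000441). Of 12 measured genes of endoplasmic reticulum and plasma membrane calcium transport, none passed by limma between adult and pup heart, where 3 had an unadjusted p under 0.05, and Atp2b1 and Atp2b2, calcium pumps of the plasma membrane, were lower in adult heart than in adult hippocampus, at -1.55 (adjusted p = 0.0197) and -1.34 (adjusted p = 0.0249).

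The probe sets whose values, less their own mean, lay closest to those of Ryr2 1450123_at over the 10 samples were of Sptbn1, Ahnak, Srsf6, Palld and Gask1b, among the 34945 probe sets that name 1 gene. Their mean absolute difference from Ryr2 was 0.325 for Sptbn1, 0.333 for Ahnak, 0.352 for Srsf6, 0.356 for Palld and 0.370 for Gask1b. For Sln 1420884_at the closest were Lims1 (0.516), Apobec2 (0.531), Plin5 (0.541), Hadh (0.567) and S100a1 (0.585). No probe set followed Sln as closely as these followed Ryr2.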

How the data were processed

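RNA of heart and hippocampus was measured on 14 single-colour Affymetrix arrays. The deposited values are log2 expression values that the authors summarized with RMA 2.0, per the labels and the study's methods. The methods also describe median centring and scaling by percentile range, and the deposited array medians were not equal. Background correction was not given in the sources used here, and neither were detection calls. With so few arrays, precision is limited by their number.

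The 2 technical arrays of each adult replicate were averaged, giving 10 biological samples. A model with the 4 groups was fitted to the 45037 non-control probe sets in limma 3.58.1 (R 4.3.3, lmFit, contrasts.fit, eBayes, two-sided, 6 residual and 3.73 prior degrees of freedom). P-values were adjusted by Benjamini-Hochberg over all probe sets of a contrast, with a threshold of 0.05. The code was tested on simulated data with known changes.

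Probe sets were named from the platform annotation, in which 34945 non-control probe sets had 1 gene, 932 had several and 9160 had none. All probe sets naming a single one of the 10 genes were reported. Of the other lists, each gene was taken by its brightest probe set, and up to 3 called genes per list and direction were named. The genes and lists were chosen with earlier results of these data known. Promoters were taken from RefSeq (GRCm38.p6). The platform annotation names no build, so no probe positions are given.

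Same-numbered replicates were not shown to be paired. The alternatives comprised other scalings, other treatments of technical arrays, filters, the methods' t-test, a replicate block and leaving out each sample.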

Additional observations from a re-analysis of the deposited data

Results flagged for a closer look

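The age difference of 3 probe sets differed between heart and hippocampus by a test of the difference itself (limma, adjusted p under 0.05), taken as the heart difference between adult and pup less the hippocampus one. It was -2.23 for Casq2 1422529_s_at (adjusted p = 0.0408), the cardiac calsequestrin, for which both adult hearts lay below all 3 pup hearts and the hippocampi of the ages overlapped. For Trdn 1451801_at, the triadin gene, it was -2.68 (adjusted p = 0.0222), with both adult hearts below all pup hearts and both adult hippocampi above all pup hippocampi. No other Trdn probe set passed, and their values lay between -0.33 and 1.15. Asph 1420959_at had -2.89 (adjusted p = 0.0114), and both adult hippocampi lay above all pup hippocampi, while both adult hearts lay slightly below the pup hearts. None of the 3 passed when any one adult sample was left out or when a replicate block was added. Of 10 fits that left out a sample, the call was kept in 2 for Casq2, 4 for Trdn and 6 for Asph. Casq2 was lost also without pup heart replicate 1 or 3, without pup hippocampus replicate 1 or 2, with technical array 2 alone and with a trended prior variance, and Trdn without pup hippocampus replicate 2 or 3.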

How the results depend on the processing

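Of 56 called differences of single probe sets, none changed direction in 1236 recomputed values over 23 alternatives. Many alternatives keep the estimate as it is, such as the t-tests, the filters or leaving out a sample of a group not compared. The direction could not change in those. Of the recomputed values, 960 stayed past the threshold and 276 did not, and 29 of the 56 differences kept their call whichever sample was left out. The 7 probe sets lower in adult heart became 3 of 10 with 1 probe set a gene, 3 with only the 2 groups compared, and 0 by the methods' t-test at 0.05 and at the methods' false discovery rate (7 at an unadjusted p under 0.05). The 6 called in hippocampus with age became 2, and 0 and 0 by the same t-tests (6 unadjusted), and 3 with a replicate block. For the 17 of the adult tissue comparison these were 5, and 0 and 0 (21 unadjusted). For the 23 of the pup tissue comparison they were 7, and 7 and 0 (22 unadjusted). The 3 interactions became 9 with each adult array as a replicate, 9 with the biological sample as a random block, and 0 by limma with a replicate block (12 unadjusted). Leaving out 1 sample gave 3 to 7, 2 to 6, 10 to 18, 16 to 24 and 0 to 5 calls in the same order. The lowest came without either adult heart for heart age, without adult hippocampus replicate 1 for hippocampus age, without adult heart replicate 2 or adult hippocampus replicate 2 for adult tissue, and without any adult sample for the interaction, for which 5 came without pup heart replicate 2. A group left with 1 sample was assumed to vary like the others. After removal of group means, same-numbered heart and hippocampus samples correlated at 0.20, -0.08 and 0.006 in pups and -0.05 in adults. With so few samples a group, these values cannot show whether the numbers pair the samples. With the block, 7 calls in heart age, 6 of them shared, 14 in adult tissue and 18 in pup tissue were made. Over all probe sets, heart age had 9011 calls, with a range of 3303 to 12189 over the alternatives in limma other than 1 probe set a gene, and hippocampus age had 6709 (1330 to 10275). Adult tissue had 9988 (4564 to 16819), pup tissue 6437 (4336 to 8547) and the interaction 1600 (209 to 4543). By the methods' t-test at 0.05 heart age had 1, hippocampus age 1887, adult tissue 1 and pup tissue 1938. The cause of these changes was not tested.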

Other observations

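Some partners and relatives of these genes, chosen after their values were seen, differed with age in hippocampus. Fkbp1b, which binds the ryanodine receptor, was at 9.15 and 9.42 in adult hippocampus, against 12.36, 11.91 and 11.69 in pup hippocampus (difference -2.70, limma adjusted p = 0.00178). In heart it was at 7.95 and 8.43 in adults and at 7.82, 8.65 and 7.73 in pups (difference 0.12, 95% interval -0.64 to 0.89, adjusted p = 0.834). The age differences of the tissues differed (2.83, adjusted p = 0.0172). Of the relatives, Slc8a3 and Casq1 were higher in adult than in pup hippocampus, by 2.04 (adjusted p = 0.00126) and 1.70 (adjusted p = 0.00252), and Atp2a3 was lower (-2.81, adjusted p = 0.0309). In pups, Cav3, the muscle caveolin, was higher in heart than in hippocampus by 2.64 (adjusted p = 0.000932), and Sri, which binds the ryanodine receptor, by 1.02 (adjusted p = 0.0250).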
